A study of Mus musculus with 9 samples.

Results

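Jarid2, Aebp2, Mtf2, Phf1 and Phf19 encode accessory subunits of the Polycomb repressive complex PRC2. They were taken by symbol from the nascent transcription table, where they are 5 of 24505 genes, and by the named gene from both tables of H3K27me3 regions, where they account for 26 of 35798 regions higher in one culture and 3 of 13607 higher in the other. All 5 genes passed the filter on low values, which 16563 genes passed. The cultures were organoids (mini-guts) of mouse duodenum. GRO-seq, which sequences the RNA being extended by engaged polymerases in nuclei, covered 3 cultures with 2 libraries each: RANKL, labelled intestinal M-cell, which carries antigen from the gut lumen to immune cells; ENRI, labelled enterocyte, the absorbing cell; and WENRC, labelled intestinal stem cell. ChIP-seq of H3K27me3 covered RANKL, with 2 libraries that the authors pooled, and WENRC, with 1 library. No medium, time, strain, genotype, sex or age is given in the labels, and the culture names are not spelled out. The ENRI and WENRC libraries are numbered by mouse, 1 or 2, whereas RANKL is numbered 1 and 2 with no mouse. Nothing in the labels says that the RANKL libraries came from separate animals or cultures, so p-values measure the spread between these libraries, which may be technical.

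PRC2 places methyl groups on lysine 27 of histone H3, and its fully methylated product H3K27me3 marks genes kept silent during development. The catalytic core of Ezh1 or Ezh2 with Eed, Suz12 and Rbbp4 or Rbbp7 is joined by accessory subunits of mutually exclusive kinds: JARID2 and AEBP2 define one variant of the complex, and a Polycomb-like protein, PHF1, MTF2 or PHF19, defines the other. JARID2 belongs to the Jumonji family but lacks demethylase activity, and it binds nucleosomes carrying ubiquitylated H2A, as AEBP2 does. The Polycomb-like proteins bind unmethylated CpG-rich DNA and, through a Tudor domain, methylated lysine 36 of H3.

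Jarid2 was higher in RANKL than in both other cultures, by 5.62-fold and 3.78-fold, and its values followed those of the ribosomal RNA precursor gene Rn45s. Aebp2 and Phf19 were higher in RANKL than in ENRI by less than 2-fold, and no call was made for Mtf2 or Phf1. Between WENRC and ENRI no member passed the test. GRO-seq values below are the authors' normalised log2 values over the whole gene, and changes are differences between culture means on that scale with a standard error (SE). Calls required an adjusted p, or FDR, under 0.05, from limma with Benjamini-Hochberg adjustment over 16563 genes. In RANKL against ENRI, 3 of the 5 members were called, all higher, where 20.9% of all tested genes were called, 10.4% higher. In RANKL against WENRC 1 of 5 was called, higher, where 12.1% of all genes were called, 8.53% higher. Of those calls over all genes 70.2% were higher in RANKL; the share was 53.3% with libraries recentred on their upper quartile and 58.7% after quantile normalisation. In a sample of bulk cells, fewer cells of a type and less RNA per cell cannot be told apart.

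**Figure D1:**
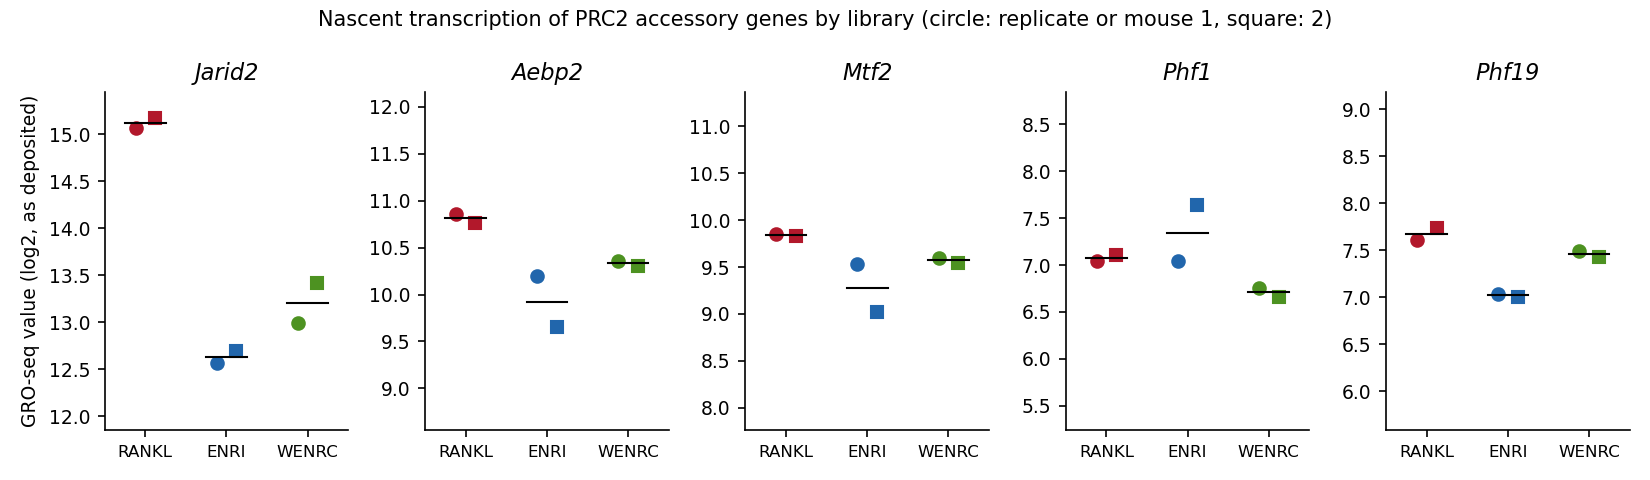
GRO-seq value (log2, as deposited; axes differ in position but not in span) of each gene in each library. Circles are replicate or mouse 1, squares 2, and the line is the mean of 2 libraries. Jarid2 is at 15.07 and 15.17 in RANKL and at or below 13.41 elsewhere, whereas the Phf1 libraries of RANKL (7.04 and 7.11) and ENRI (7.05 and 7.64) overlap.

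Jarid2 (NM_021878; mm9 chr13:44826143-45017012, plus strand, 190869 bp) was at 15.07 and 15.17 in the RANKL libraries. It was at 12.56 and 12.70 in ENRI, and at 12.99 and 13.41 in WENRC. Both RANKL libraries lay above every other library, and both WENRC libraries above both ENRI libraries. The means were 15.12 ± 0.07 in RANKL, 12.63 ± 0.09 in ENRI and 13.20 ± 0.30 in WENRC (SD, n = 2 each). RANKL exceeded ENRI by 2.49 on the log2 scale (SE 0.23, limma FDR 0.00311, 95% interval 1.94 to 3.04), a 5.62-fold difference. It exceeded WENRC by 1.92 (SE 0.23, limma FDR 0.00727, 95% interval 1.37 to 2.47), a 3.78-fold difference. Ordered by change, from the most increased in RANKL, Jarid2 stood at rank 153 and 316 of all tested genes, and 4.99% of all tested genes were called higher in RANKL against both. The authors' deposited table gives log2 changes of 2.78 (adjusted p 4.65e-27) and 2.11 (adjusted p 9.35e-39). The call against ENRI is lost with either RANKL library left out (limma FDR 0.0566 and 0.0674). Against WENRC it is lost without either RANKL library or without WENRC 1 (limma FDR 0.110, 0.129 and 0.0518), and after quantile normalisation, which gives 0.73 (limma FDR 0.101).

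The promoter sequence is shown for Jarid2, the member whose GRO-seq value differed most between cultures, and for Phf19. The transcription start of Phf19 carried the H3K27me3 difference described further on. CpG pairs, which the Polycomb-like subunits bind when unmethylated, are in capitals. Each is the 250 bases before a RefSeq transcription start in build GRCm38.p6, 5′ to 3′ on the gene's strand; for Jarid2 it is the more upstream of 2 listed starts, at chr13:44730524-44730773 on the plus strand. The Phf19 window is chr2:34913977-34914226 on the minus strand. These positions are on another build than the mm9 positions of the files and were not converted.
Jarid2: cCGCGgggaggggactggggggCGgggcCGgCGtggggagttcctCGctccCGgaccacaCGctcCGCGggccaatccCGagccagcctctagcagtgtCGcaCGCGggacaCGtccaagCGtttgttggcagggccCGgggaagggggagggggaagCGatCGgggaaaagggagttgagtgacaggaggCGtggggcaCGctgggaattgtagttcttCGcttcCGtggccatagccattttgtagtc
Phf19: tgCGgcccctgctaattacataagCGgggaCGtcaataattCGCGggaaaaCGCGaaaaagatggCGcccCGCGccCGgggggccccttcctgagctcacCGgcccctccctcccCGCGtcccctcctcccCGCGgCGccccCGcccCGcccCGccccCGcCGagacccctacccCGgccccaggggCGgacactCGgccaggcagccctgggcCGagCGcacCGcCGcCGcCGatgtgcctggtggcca
The Jarid2 window held 23 CpG and the Phf19 window 31, against a median of 6 over 32851 promoter windows of the same length. Fewer CpG were counted in 86.7% of windows for Jarid2 and in 94.8% for Phf19. The GC content was 67.2% and 75.2%, against a median of 52.4%. Both windows are thus CpG-rich, which is a description of the letters and says nothing of binding.

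The pattern of Jarid2 across the libraries closely followed that of Rn45s, the gene of the 45S ribosomal RNA precursor (NR_046233). Rn45s is among the 5 genes of most similar pattern, by the distance between library values centred on each gene's mean. Rn45s was at 19.51 and 19.87 in RANKL, 17.41 and 17.40 in ENRI, and 17.79 and 18.07 in WENRC. The Jarid2 value minus the Rn45s value lay between -4.85 and -4.44 in all 6 libraries, a range of 0.411. Measured against Rn45s, only 1 of 16562 other genes, Scn2b, had a smaller range, and the median range was 2.69. For Aebp2 the same difference ran from -9.11 to -7.22, a range of 1.89, and 8.12% of genes had a smaller range. That share was 7.10% for Phf19, 16.8% for Mtf2 and 68.3% for Phf1. The Rn45s change itself was not called: RANKL minus ENRI was 2.29 (SE 0.70, limma FDR 0.0667) and RANKL minus WENRC was 1.76 (SE 0.70, limma FDR 0.160). Rn45s held the highest value in every library. Its spread within cultures was about that of Jarid2, so its SE of 0.70, beside 0.23 for Jarid2, was set mainly by limma's variance trend. The missing call thus does not show that Rn45s was unchanged. Jarid2 ranked 6 and 7 among all genes by value in the RANKL libraries, 124 and 122 in ENRI and 27 and 10 in WENRC. Whether reads of ribosomal origin counted inside the Jarid2 gene contribute to its values was not tested, since the deposited table holds 1 value per gene. The overlapping gene pair Cmss1 and Filip1l, noticed after the values were seen, followed the same pattern: RANKL exceeded ENRI by 2.49 (SE 0.29, limma FDR 0.00485) for Cmss1 and by 2.52 (SE 0.29, limma FDR 0.00474) for Filip1l.

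**Figure D2:**
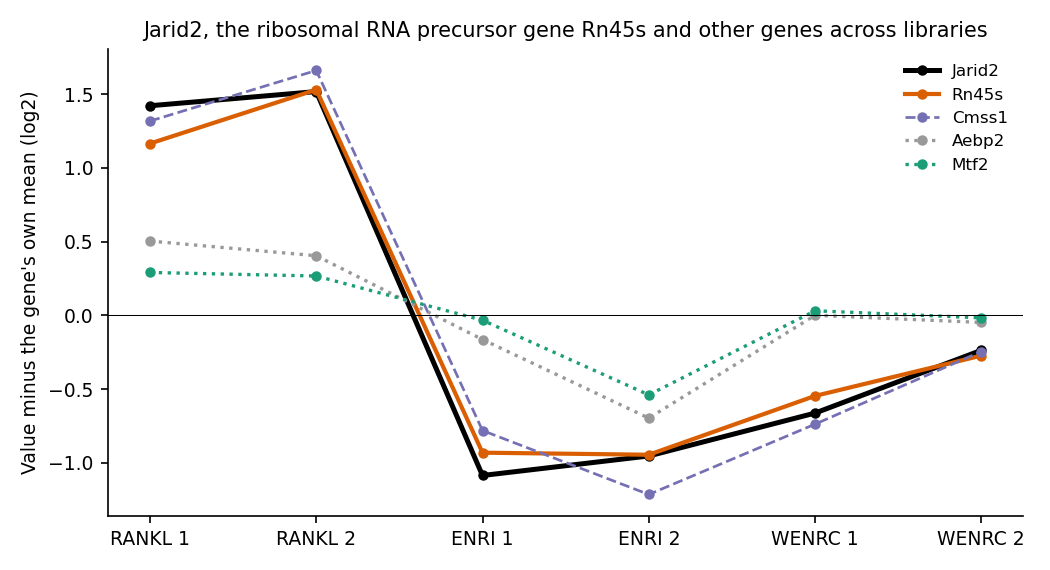
GRO-seq value minus the gene's own mean over the 6 libraries (log2) for Jarid2, Rn45s, Cmss1, Aebp2 and Mtf2; lines join the libraries of each gene and imply no order. Jarid2 and Rn45s stay within 0.411 of a constant difference, while Aebp2 and Mtf2 vary less between the cultures.

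The other 4 genes of most similar pattern to Jarid2 were Trim43a (distance 0.27 log2), Pemt (0.28), Trim43c (0.31) and Gfi1b (0.33), measured over 6 libraries, and 157 genes lay within a distance of 1. Pemt, which makes phosphatidylcholine by methylation, changed by 2.72 against ENRI (SE 0.19, limma FDR 0.00197) and by 2.04 against WENRC (SE 0.19, limma FDR 0.00369). Gfi1b, a zinc-finger repressor gene, was at 5.37 and 5.46 in RANKL and at 2.98 to 3.50 elsewhere, and since it passed the filter through the RANKL libraries no test of it is given. Trim43a and Trim43c belong to a family of near-identical copies, so that reads may be shared between them. The nearest gene, Dtnbp1, runs toward Jarid2 and ends 437 bp past its end. Dtnbp1 was at 9.45 and 9.78 in RANKL, 9.65 and 9.82 in ENRI, and 9.76 and 9.53 in WENRC. The libraries of the 3 cultures overlapped for Dtnbp1, and no change was called (RANKL minus ENRI -0.12, limma FDR 0.670).

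Aebp2, the partner of JARID2 (NM_009637; mm9 chr6:140572023-140626993, plus strand, 54970 bp), was at 10.86 and 10.76 in RANKL. It was at 10.19 and 9.66 in ENRI and at 10.36 and 10.31 in WENRC. RANKL lay above all other libraries, and the ENRI libraries differed from each other by more than those of the other cultures. RANKL exceeded ENRI by 0.88 (SE 0.20, limma FDR 0.0288), a 1.85-fold difference. RANKL minus WENRC was 0.48 (SE 0.20, limma FDR 0.173, 95% interval -0.0038 to 0.96). The authors' deposited table gives 0.98 (adjusted p 0.0200) and 0.54 (adjusted p 0.00151) for these comparisons, so the call against WENRC is made there, where 27.8% of all genes are called. A fit of only the 4 libraries compared changes both calls, with limma FDR 0.0679 against ENRI and 0.0130 against WENRC. Against ENRI the call also goes without RANKL 1, RANKL 2, WENRC 1 or WENRC 2 (limma FDR 0.190, 0.177, 0.0681 and 0.0677). Its nearest listed gene, Plekha5, lay 28.6 kb away and was not called (RANKL minus ENRI -0.16, limma FDR 0.548). The genes of most similar pattern included Snx10 (distance 0.07) and 2610044O15Rik8 (0.09), with 5717 genes within a distance of 1.

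Among the Polycomb-like genes, Phf19 was called in RANKL against ENRI, and Mtf2 and Phf1 were not. Phf19 (NM_028716; mm9 chr2:34749275-34769496, minus strand, 20221 bp) was at 7.61 and 7.73 in RANKL. It was at 7.03 and 7.01 in ENRI and at 7.50 and 7.42 in WENRC. The 3 cultures did not overlap, with RANKL highest and ENRI lowest. RANKL exceeded ENRI by 0.65 (SE 0.16, limma FDR 0.0345), a 1.57-fold difference. RANKL minus WENRC was 0.21 (SE 0.16, limma FDR 0.423). The first call is not made in the authors' deposited table, which gives 0.90 (adjusted p 0.127) and calls 19.6% of all genes. It is also lost in a fit of the 4 libraries compared (limma FDR 0.0815), with the replicate block (limma FDR 0.0676), and without RANKL 1, RANKL 2, WENRC 1 or WENRC 2 (limma FDR 0.174, 0.249, 0.0815 and 0.0802).

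Mtf2 (NR_045608; mm9 chr5:108494693-108538238, plus strand, 43545 bp) was at 9.85 and 9.83 in RANKL, 9.53 and 9.02 in ENRI, and 9.59 and 9.55 in WENRC. RANKL lay above all other libraries, but the ENRI libraries were 0.51 apart. RANKL minus ENRI was 0.56 (SE 0.19, limma FDR 0.0849) and RANKL minus WENRC was 0.27 (SE 0.19, limma FDR 0.396). Without ENRI 1 the first reaches 0.82 and is called, in a fit that rests on 1 ENRI library. Phf1 (NR_126158; mm9 chr17:27070072-27074853, plus strand, 4781 bp) was at 7.04 and 7.11 in RANKL, 7.05 and 7.64 in ENRI, and 6.75 and 6.66 in WENRC. Here ENRI held the highest library and WENRC the lowest, and RANKL overlapped ENRI. RANKL minus ENRI was -0.27 (SE 0.23, limma FDR 0.461) and RANKL minus WENRC was 0.37 (SE 0.23, limma FDR 0.356). Leaving out ENRI 2 turns the first to 0.030. Leaving out ENRI 1 makes it -0.56, which is called in that fit on 1 ENRI library. Mir6968 lies inside Phf1 and was below the filter.

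**Figure D3:**
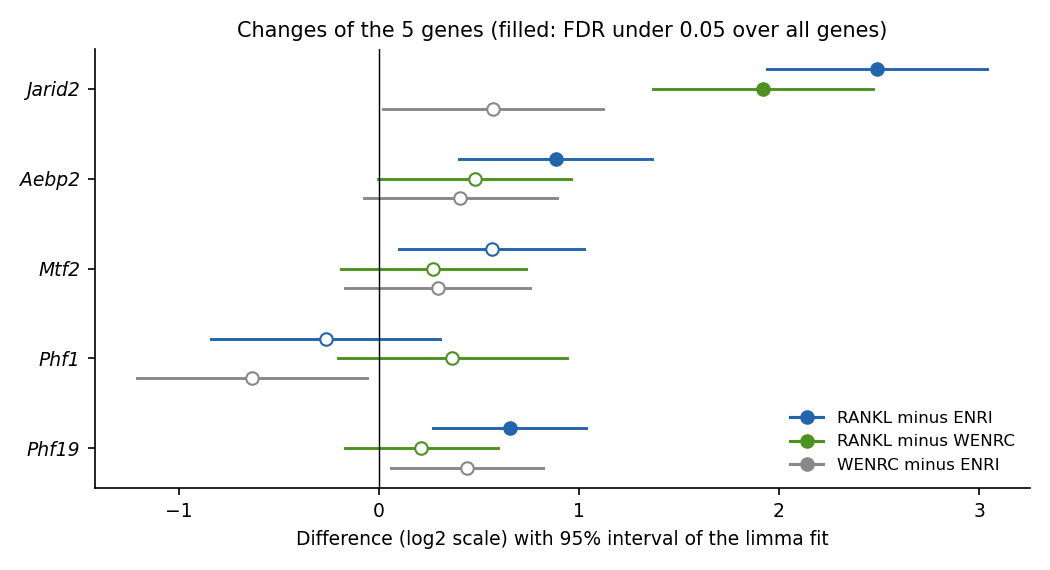
Difference between culture means (log2) with the 95% interval of the limma fit, for each gene and comparison. Filled points passed an FDR under 0.05 over all tested genes: Jarid2 in both RANKL comparisons, and Aebp2 and Phf19 in RANKL minus ENRI.

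WENRC minus ENRI was 0.57 for Jarid2 (SE 0.23, limma FDR 0.143), 0.41 for Aebp2 (SE 0.20, limma FDR 0.214) and 0.29 for Mtf2 (SE 0.19, limma FDR 0.341). It was 0.44 for Phf19 (SE 0.16, limma FDR 0.113) and -0.63 for Phf1 (SE 0.23, limma FDR 0.124). Limma called 0 of 5 members here, where 14.6% of all tested genes were called; 3 of the 5 had an unadjusted p under 0.05, as 32.5% of all tested genes did. Of all genes 4.85% were called higher, and the authors' deposited table calls 0 of the 5 and 12.5% of all genes. Of the calls over all genes 33.2% were higher in WENRC, a share of 54.1% with the upper quartile and 51.7% after quantile normalisation. The quantile fit calls Jarid2 (1.18, limma FDR 0.0261), and the upper quartile fit calls Phf19 (0.55, limma FDR 0.0455). Without ENRI 1 the difference was 0.67 for Aebp2, 0.55 for Mtf2 and -0.93 for Phf1. These genes are called in that fit, which rests on 1 ENRI library. Within mouse 1 and mouse 2, Jarid2 differed by 0.42 and 0.72, Aebp2 by 0.16 and 0.65, and Mtf2 by 0.06 and 0.52. Phf19 differed by 0.46 and 0.42 and Phf1 by -0.29 and -0.98. With the mouse number as a replicate block, 1506 genes were called in this comparison in place of 2416.

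RANKL libraries lay above both ENRI libraries for 4 members, Jarid2, Aebp2, Mtf2 and Phf19, a pattern of 32.4% of all tested genes. They lay above both WENRC libraries for all 5, as 34.1% of all tested genes do. WENRC lay above ENRI for the same 4 members, as for 29.3% of all genes, and below it for Phf1, as for 29.2%. The members' median change was 0.65 in RANKL minus ENRI, 0.37 in RANKL minus WENRC and 0.41 in WENRC minus ENRI, beside medians of all tested genes of -0.0048, -0.0073 and -0.014. RANKL is shared by the first pair of comparisons, so they are not independent. Aebp2, Mtf2 and Phf19 had the most similar patterns among the members, with distances of 0.33 (Aebp2 and Mtf2), 0.39 (Mtf2 and Phf19) and 0.49 (Aebp2 and Phf19). Phf1 lay at least 1.24 from these 3, and Jarid2 lay 1.86 to 2.81 from the other 4. The genes nearest in pattern to Mtf2 were 4933427D14Rik (0.08), Manbal (0.09) and Evl (0.10). Those nearest to Phf19 were E130308A19Rik (0.07), Fzd2 (0.09) and Mpst (0.10), and those nearest to Phf1 were Tstd1 (0.11), Zfp942 (0.14) and Mamdc4 (0.15).

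Levels were compared between genes per kb of gene length. On a log2 per-kb scale Jarid2 stood at 7.54 in RANKL, 5.05 in ENRI and 5.62 in WENRC, and Aebp2 at 5.03, 4.15 and 4.55. Mtf2 stood at 4.40, 3.83 and 4.13, Phf1 at 4.82, 5.08 and 4.45, and Phf19 at 3.33, 2.68 and 3.12. Jarid2 was thus the highest of the 5 in RANKL and WENRC, while in ENRI the mean of Phf1 was about level with that of Jarid2. Phf19 was the lowest in all 3 cultures. As a share of the summed linear per-kb level of the 5 genes, Jarid2 took 66.1% and 67.7% in the RANKL libraries. It took 30.5% and 31.8% in ENRI, and 36.8% and 45.0% in WENRC. Jarid2 and Aebp2 together took 78.5% and 78.8% in RANKL, 50.9% and 45.2% in ENRI, and 57.4% and 63.1% in WENRC, so the RANKL shares lay above all others. After quantile normalisation the mean Jarid2 share was 55.8% in RANKL, 29.0% in ENRI and 47.5% in WENRC. The Jarid2 share carries the tracking of Rn45s described above. Within the Polycomb-like genes alone, Phf1 took 47.2% and 47.9% in RANKL, 54.1% and 69.5% in ENRI, and 45.8% and 45.2% in WENRC. Mtf2 took 36.3% and 34.7% in RANKL, 33.2% and 19.9% in ENRI and up to 36.7% in WENRC, and Phf19 took between 10.6% and 18.1% in all libraries.

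**Figure D4:**
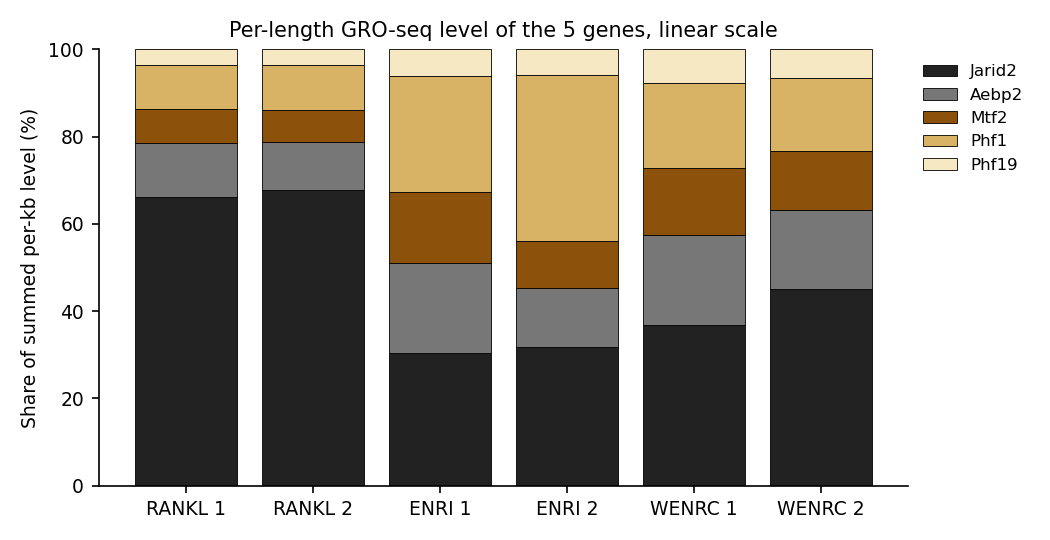
Share (%) of the summed linear GRO-seq level per kb that each of the 5 genes took, for each library; bars sum to 100. Jarid2 takes 66.1% and 67.7% in RANKL and between 30.5% and 45.0% in the other libraries.

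The remaining Polycomb genes give the setting of these changes. Of all tested genes limma called 20.9% in RANKL against ENRI (10.4% higher) and 12.1% in RANKL against WENRC (8.53% higher). In WENRC minus ENRI it called 14.6% (4.85% higher). These shares stand beside all list and marker counts that follow. Of 6 PRC2 core genes, 3 rose in RANKL against ENRI and 0 fell, by limma: the methyltransferases Ezh1 (0.79, FDR 0.0194) and Ezh2 (0.78, FDR 0.0481), and the histone-binding Rbbp4 (1.02, FDR 0.0183), named here after their values were seen. The core's median was 0.68, and the Ezh2 call is lost in the authors' deposited table (adjusted p 0.0650). Against WENRC only Ezh1 rose (0.82, SE 0.15, limma FDR 0.0238), with a core median of 0.16. None of the 6 was called in WENRC minus ENRI, where the median was 0.45. Of 5 further accessory or inhibitor genes 3 were tested, and Lcor rose against WENRC (0.86, SE 0.13, limma FDR 0.0146). AU022751 and Skida1 were below the filter. That list's medians were 0.44, 0.23 and -0.12 in RANKL minus ENRI, RANKL minus WENRC and WENRC minus ENRI.

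Of 26 genes of PRC1, the complex that ubiquitylates H2A and reads H3K27me3, 8 rose and 2 fell in RANKL against ENRI (median 0.32). Kdm2b, the CpG-binding subunit of a variant PRC1, rose by 2.53 (SE 0.18, limma FDR 0.00197). Cbx2, a reader of H3K27me3, rose by 1.61 (SE 0.21, limma FDR 0.00683). Variant PRC1 genes Pcgf5, Auts2, Pcgf6 and Bcorl1 rose by 1.54, 1.45, 1.27 and 0.77 (limma FDR 0.00442, 0.00774, 0.0126 and 0.0150). Against WENRC 5 rose and 1 fell (median 0.08), among them Kdm2b (1.95, limma FDR 0.00355), Bcorl1 (1.09, limma FDR 0.00792) and Pcgf5 (1.09, limma FDR 0.0145). In WENRC minus ENRI, Auts2 (0.85), Bcor (1.05) and E2f6 (0.85) rose (limma FDR 0.0417, 0.0431 and 0.0435), 0 fell, and the median was 0.28. With the mouse number as a replicate block these 3 calls are lost (limma FDR 0.0717, 0.0604 and 0.0737). Of 7 demethylases and Jumonji-ARID relatives of Jarid2, 2 rose against ENRI (median 0.38), 2 against WENRC (median 0.53) and 0 in WENRC minus ENRI (median -0.21). The pair that rose against WENRC included Kdm2a (0.87, SE 0.14, limma FDR 0.0151). Of 5 H3K36 methyltransferases, whose product the Tudor domain binds, 1 rose against ENRI (median 0.42), 0 against WENRC (median 0.34) and 0 in WENRC minus ENRI (median 0.04). Of the 15 calls named in these lists that involve RANKL, 14 were lost without RANKL 1, 15 without RANKL 2, and 7 each without WENRC 1 or WENRC 2.

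By summed level M cell and enterocyte markers were highest in the cultures labelled so. Stem cell markers were 0.06 apart by median between RANKL and WENRC, but single markers differed in both directions. Lgr5 was lower in RANKL (8.75 and 8.84) than in WENRC (11.64 and 11.99). Olfm4 was higher in RANKL (10.90 and 11.05) than in WENRC (8.83 and 9.12). Of 11 M cell markers 10 were called higher in RANKL against ENRI and 9 against WENRC. Among them Gp2 and Sox8 would not have passed the filter without the RANKL libraries, so these counts are no test of those genes. The summed level of the 11 markers was 13.46 and 13.53 (log2) in RANKL against 10.50 to 11.24 elsewhere. The summed level of 9 enterocyte markers was 15.56 and 16.37 in ENRI, 14.59 and 14.74 in RANKL, and 11.67 to 12.87 in WENRC. In RANKL 4 of the 9 were called lower and 0 higher against ENRI. Against WENRC 5 were called higher and 0 lower, with a median change of 1.51. The summed level of 8 stem cell markers was 14.53 and 14.63 in WENRC, 14.37 and 14.43 in RANKL and 12.40 and 12.99 in ENRI; 1 was called higher and 1 lower in RANKL against WENRC, and 5 higher against ENRI. The summed level of 6 cycling genes was 12.21 and 12.42 in WENRC, 12.23 and 12.43 in RANKL and 11.06 and 11.39 in ENRI; RANKL minus WENRC had a median of -0.45 with 1 called lower and 0 higher by limma, and against ENRI 2 were higher and 1 lower. Of 5 Paneth markers 2 were higher in RANKL against each other culture (10.80 and 10.98, against 8.68 to 9.71). Of 6 goblet markers 1 was lower in RANKL than in ENRI (summed level 13.51 and 13.54, against 13.20 and 13.69) and 3 were higher and 1 lower than in WENRC (10.87 and 11.83). Of 6 enteroendocrine and 3 tested tuft markers, 1 each was higher in RANKL in both comparisons. Of the leukocyte markers 3 passed the filter and limma called 0 of them, and the summed level was 7.34 to 7.95 in every library. Of 5 mesenchymal markers only Pdgfrb passed the filter (9.21 and 9.26 in RANKL, 6.44 to 7.68 elsewhere). The part of other cell types in the member changes was not tested. The file header marks the RANKL libraries, and no others, as combined from re-sequencing, so a batch cannot be told apart from that culture.

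Differential H3K27me3 regions were compared between pooled RANKL and WENRC, with no replicate check; regions, folds and p-values are the authors'. A region counts here when its centre lies within 5 kb of the transcription start of the gene the authors name. By that measure 1 of the 5 members, Phf19, had a RANKL-higher region, as 18.0% of all tested genes did. None had a WENRC-higher region, where 5.01% of all tested genes had one. The Phf19 region (mm9 chr2:34768083-34770789, 2706 bp) spans the transcription start, with its centre 60 bp away, and is annotated as promoter. It held 154 tags in pooled RANKL and 63.9 in WENRC scaled to the same depth of 32.7 M tags, a fold of 2.41 (authors' p 1.11e-21). It was long for its table, with 97.8% of regions shorter and 97.7% with fewer tags, but 17.0% of regions had a smaller fold. Phf19 transcription in RANKL minus WENRC was 0.21 and was not called.

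Jarid2, Mtf2 and Phf1 were named for no region in either table. At any distance, 32.3% of tested genes were named for a RANKL-higher region and 23.3% for a WENRC-higher one. Around the Jarid2 gene, 0 regions of either table lay within 100 kb, whereas 73.5% of tested genes had a RANKL-higher region that near and 58.9% a WENRC-higher one. The nearest lay 170.1 kb away in the RANKL-higher table and 134.6 kb away in the WENRC-higher table, both beyond Dtnbp1. Mtf2 had its nearest RANKL-higher region 45.7 kb away, named for Fam69a. Within 100 kb of Phf1 lay 8 RANKL-higher and 2 WENRC-higher regions, all named for other genes, the nearest 3.233 kb and 4.957 kb from its body. A table of differences does not show whether the mark was present at equal level or absent.

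Aebp2 was named for 25 RANKL-higher regions and 3 WENRC-higher regions, none within 5 kb of its start. The RANKL-higher regions lay 87.4 to 302.5 kb past the start, beyond the end of the gene, with folds of 2.22 to 6.29 (median 3.46, beside a median of 2.92 over the table). Together they covered 18.14 kb and held 795 tags in pooled RANKL against 247.5 scaled tags in WENRC. The largest fold, 6.29, was at chr6:140740582-140741082 with 17 against 2.7 tags. Pde3a, which encodes a phosphodiesterase, is the next gene after Aebp2. The stretch of 570.8 kb between them held 28 RANKL-higher regions (49.1 per Mb) and 5 WENRC-higher regions (8.76 per Mb). The whole chromosome held 1672 RANKL-higher and 841 WENRC-higher regions, so the tables differ in size, and no rate per Mb is given for it. The Aebp2 name is that of the nearest transcription start and ties none of these regions to its transcription. Of the WENRC-higher regions, the one of largest fold, 4.50, was at chr6:140843047-140843547. Another, at chr6:140626263-140626763, lay in the 3′ UTR in the last exon of Aebp2, with 24.3 scaled tags in WENRC against 9 in pooled RANKL (fold 2.70).

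**Figure D5:**
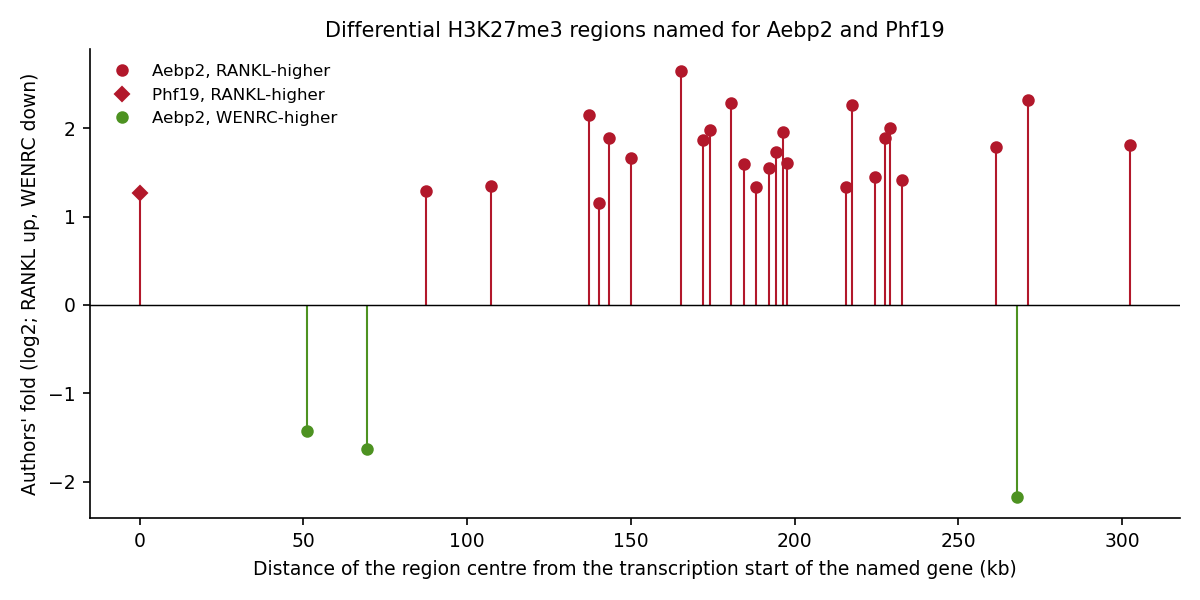
Authors' fold (log2) of each H3K27me3 region named for Aebp2 or Phf19 against the distance (kb) of its centre from the transcription start; RANKL-higher regions point up and WENRC-higher down. The single Phf19 region sits 0.06 kb from the start, and the 25 RANKL-higher Aebp2 regions begin 87.4 kb away.

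Neighbours of the members within 50 kb gave further values. Ccdc18, 23.7 kb from Mtf2, rose by 1.35 against ENRI (SE 0.15, limma FDR 0.00427) and by 1.29 in WENRC minus ENRI (SE 0.15, limma FDR 0.0102). Traf1, an adaptor of tumour necrosis factor receptors 27.8 kb from Phf19, was at 4.30 and 4.14 in RANKL and at 3.02 to 3.32 elsewhere, and since it passed the filter through RANKL alone no test of it is given. A WENRC-higher region (fold 3.78) lay upstream of its start, at -1265 bp. Cutal, 1.622 kb from Phf19, rose by 0.79 against ENRI (SE 0.20, limma FDR 0.0386). Kifc5b, 0.548 kb before Phf1, rose by 1.06 in WENRC minus ENRI (SE 0.17, limma FDR 0.0173). Cuta, Zbtb9, Tmed5 and Psmd5 carried no call in any comparison.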

How the data were processed

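GRO-seq was measured in 6 libraries and H3K27me3 by ChIP-seq in 3. The deposited GRO-seq values are normalised log2 values per RefSeq gene on mm9. Per the file headers, reads were counted over whole genes with HOMER and compared between all pairs of cultures; the transform is not named and strand handling is not given in the sources used here. The submitters' processing notes name Bowtie2 2.3.4.1, HOMER, DESeq2 and mm9. The deposited table also holds the authors' log2 changes and p-values. In both region tables the authors called peaks of one culture against the other with HOMER, per the file headers; RANKL tags are deposited as counts in the RANKL-higher table and as signal in the other, WENRC tags are a deposited signal scaled to the RANKL depth, and the deposited fold, a ratio of tags set by the authors, is at least 2 throughout.

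The GRO-seq depth is unknown, since the values hold no counts. The design foresaw limma for log values, so limma 3.58.1 (R 4.3.3) was run on the values as deposited, with a variance trend, 3 culture means and all 6 libraries, for the 16563 genes at log2 of 10 or more in at least 2 libraries. The script was tested on simulated data. Levels per kb subtract the log2 of gene length. Pattern distances are Euclidean over the 6 values centred on each gene's mean, without overlapping genes. P-values are two-sided. Named genes were the members; in the other Polycomb lists, per comparison, the 6 of smallest p or every call if 6 or fewer; genes within 50 kb of a member; the most similar patterns (5 for Jarid2, 3 for the others); and regions within 5 kb or of the largest fold. Some genes that this rule or the lists name are not reported here. Members and lists were chosen with earlier results of these data known. Promoters came from RefSeq (GRCm38.p6), matched by symbol for all 5 members; no genome of the mm9 build and no protein table were used here.

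The mouse number pairs ENRI with WENRC, per the labels: same-numbered libraries deviated together (r = 0.41 across genes, which are not independent), and mouse and header date cannot be separated. RANKL numbers share only a number with them. Alternatives were the 4 libraries compared, a replicate block, other scalings and filters, the authors' test, each library left out, and other region thresholds, distances and assignments.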

Additional observations from a re-analysis of the deposited data

How the results depend on the processing

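Each comparison rests on 2 libraries per culture. Replicate libraries of RANKL differed with an SD over genes of 0.22, those of ENRI 0.70, those of WENRC 0.42. A lone library left in a culture is assumed to vary like the others. Genes called in RANKL minus ENRI numbered 3464; 1925 were called with only the 4 libraries compared, 1423 with the replicate block in those 4, and 64 to 6966 with a library left out (64 without RANKL 2, 111 without RANKL 1, 1915 without WENRC 1, 1929 without WENRC 2, 6966 without ENRI 1). In RANKL minus WENRC 2012 were called, against 5194 with 4 libraries, 4686 with the replicate block in those 4, 4604 in the authors' deposited table, and 0 to 5176 with a library left out (0 without RANKL 1 or RANKL 2, with 2702 and 2486 at an unadjusted p under 0.05; 262 and 216 without WENRC 1 and 2; 5152 and 5176 without ENRI 1 and 2). In WENRC minus ENRI 2416 were called, against 0 with 4 libraries by limma (4074 at an unadjusted p under 0.05, and 2076 in the authors' deposited table), 124 with the replicate block in those 4, 1506 with the replicate block, and 0 to 6650 with a library left out (0 without RANKL 1, RANKL 2 or WENRC 2, with 4078, 4075 and 3329 at an unadjusted p under 0.05; 39 without WENRC 1; 6650 without ENRI 1). Crossing the RANKL numbers in the block gave 3410 calls against ENRI and 1784 against WENRC. The upper quartile moved the median change of all genes to -0.12 in RANKL minus WENRC and 0.10 in WENRC minus ENRI.

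With a library left out, Jarid2 ran from 2.42 to 2.56 in RANKL minus ENRI and from 1.71 to 2.13 in RANKL minus WENRC; quantile normalisation gave 0.73 in the latter and 1.18 in WENRC minus ENRI. Aebp2 was 0.88 in RANKL minus ENRI with 4 libraries and with the replicate block in those 4 (limma FDR 0.0679 and 0.0688), and 0.62 to 1.15 with a library left out. In RANKL minus WENRC it was 0.48 in both 4-library fits (limma FDR 0.0130 and, with the block, 0.0342), 0.54 in the authors' deposited table, and 0.43 to 0.53 with a library left out; in WENRC minus ENRI it ran from 0.14 to 0.67. Mtf2 ran from 0.31 to 0.82 in RANKL minus ENRI and from 0.040 to 0.55 in WENRC minus ENRI. Phf1 ran from -0.56 to 0.030 in RANKL minus ENRI and from -0.93 to -0.34 in WENRC minus ENRI. Phf19 in RANKL minus ENRI was 0.65 with 4 libraries, with the replicate block (limma FDR 0.0676) and with both (limma FDR 0.177), 0.90 in the authors' deposited table, and 0.59 to 0.71 with a library left out; the upper quartile gave 0.55 in WENRC minus ENRI. The replicate block over all 6 libraries changed no other member's call. Signs turned for Ccdc18 in RANKL minus WENRC (-0.049 with the upper quartile; -0.014 to 0.15 with a library left out, negative without WENRC 2) and for Dtnbp1 (-0.28 to 0.047 in RANKL minus ENRI and -0.19 to 0.13 in RANKL minus WENRC with a library left out, positive without RANKL 1 in both and without WENRC 1, at 0.083, in the latter), neither of them called. RANKL-higher regions within 5 kb of a member's start numbered 1, against 0 at a fold of at least 4 and 26 at any distance. WENRC-higher regions numbered 0, against 3 at any distance and 1 overlapping a gene body. Of 32 calls named for genes other than the members, 29 were lost without RANKL 1, 32 without RANKL 2, 17 without WENRC 1, 16 without WENRC 2, 2 without ENRI 2, 8 with 4 libraries, 10 with the replicate block in those 4, 5 with the replicate block, and up to 4 with another scaling, filter or the authors' test. Fewer libraries enter the fits that leave some out; otherwise the cause was not tested.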
